A study of Mus musculus with 2 samples.

Results

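Transcripts of Alb, Apoa1, Fgb and Hpx, which encode plasma proteins made mainly by hepatocytes, were found at low levels in brown adipose tissue of the HFD control library. In the SML library Alb had no fragment and Apoa1 and Hpx were 30.5-fold and 5.74-fold lower, while Fgb was too rare in either library for a difference to be seen. The 4 genes were taken by symbol from the 10778 gene symbols of the deposited table, and each had 1 transcript there. They were chosen by their FPKM and counts in these same libraries, for the difference between them, so their differences are a description and were not tested. Brown fat was taken from C57BL6/J males, 8 to 12 weeks old, after 10 days on a high-fat diet (60% of calories). The HFD control group received this diet without SML, and the SML group received the same diet with SML at 5 mg per kg body weight by the intraperitoneal route. SML is an abbreviation of the labels, and the series title speaks of sesaminol, a lignan of sesame. The comparison asked how gene expression in brown fat under a high-fat challenge differed with SML. Each group was represented by 1 library of poly(A) RNA, and how many animals it represents was not stated in the labels.

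Hepatocytes secrete most of the proteins of blood plasma, and their genes are switched on together by liver-enriched transcription factors such as HNF1, HNF4, FOXA and C/EBP proteins. Alb encodes albumin, the main carrier and osmotic protein of plasma. Apoa1 encodes apolipoprotein A-I, the structural protein of high-density lipoprotein, which the intestine makes as well. Fgb encodes the beta chain of fibrinogen, the clotting precursor, and Hpx encodes hemopexin, which binds free heme and delivers it for uptake. Brown fat itself is known for burning lipid to make heat and is not a textbook source of these proteins.

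With 1 library per group there was no replicate check, no p-value and no spread between animals, and every difference compares 2 libraries rather than 2 conditions. The table held 12001476 fragments for HFD control and 8503500 for SML. Levels are given as FPKM, the number of fragments scaled to transcript length and to library size. Since the levels were low, each is given with its number of fragments, recovered from the scaled counts of the authors (1 fragment was worth 0.637 scaled counts in HFD control and 0.866 in SML). Intervals are 95% exact intervals for counting error only, because PCR copies are not independent molecules. In bulk tissue, fewer cells of a type and less RNA per cell cannot be told apart.

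On mouse build mm10 the deposited transcript of Alb lay on chromosome 5 from 90460889 to 90476603 on the plus strand, over a gene of 15 exons in GENCODE M21. That of Apoa1 lay on chromosome 9 from 46228630 to 46230469 on the plus strand (4 exons), that of Fgb on chromosome 3 from 83042305 to 83049790 on the minus strand (8 exons) and that of Hpx on chromosome 7 from 105591611 to 105600116 on the minus strand (10 exons). All 4 are protein-coding genes, and no other gene of the table overlapped them. The 200 bases before the start of each gene are shown because liver-enriched factors are known to act close to the start of such genes. They come from RefSeq on GRCm38.p6, where all 4 members had 1 entry, and are written 5′ to 3′ on the strand of the gene. Capitals mark matches on either strand to GTTAAT (core of the HNF1 motif), TTNNGNAA (C/EBP), TGTTTNC (FOXA) and TATANA (TATA box). A match on the opposite strand reads as the reverse complement, and matches of different motifs did not overlap.
Alb, chr5:90460670-90460869 (plus strand): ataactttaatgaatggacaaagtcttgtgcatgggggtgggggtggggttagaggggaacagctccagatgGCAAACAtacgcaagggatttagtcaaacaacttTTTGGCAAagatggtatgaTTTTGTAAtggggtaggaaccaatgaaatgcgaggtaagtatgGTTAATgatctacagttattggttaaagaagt
Apoa1, chr9:46228430-46228629 (plus strand): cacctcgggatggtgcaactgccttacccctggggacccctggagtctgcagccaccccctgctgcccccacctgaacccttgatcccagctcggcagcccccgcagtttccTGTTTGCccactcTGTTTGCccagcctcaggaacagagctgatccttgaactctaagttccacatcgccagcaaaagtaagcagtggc
Fgb, chr3:83049864-83050063 (minus strand): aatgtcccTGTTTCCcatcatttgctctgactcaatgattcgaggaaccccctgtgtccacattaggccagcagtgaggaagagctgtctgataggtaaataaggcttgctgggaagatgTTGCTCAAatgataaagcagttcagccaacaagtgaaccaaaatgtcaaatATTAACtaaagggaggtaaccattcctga
Hpx, chr7:105600117-105600316 (minus strand): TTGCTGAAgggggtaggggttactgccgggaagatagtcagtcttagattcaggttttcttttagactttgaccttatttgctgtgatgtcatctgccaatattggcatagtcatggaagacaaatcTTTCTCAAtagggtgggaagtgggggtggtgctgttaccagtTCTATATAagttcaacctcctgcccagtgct

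Counted from the RefSeq start, the HNF1 core began 32 bases before Alb and, on the opposite strand, 29 bases before Fgb. It was found in 5.06% of 32851 RefSeq promoter windows of the same length. A C/EBP match was found in Alb, Fgb and Hpx and in 29.99% of all windows. A FOXA match was found in Alb, Apoa1 and Fgb and in 14.1% of all windows, and Apoa1 held it 2 times on its own strand. In these windows Hpx was the 1 member with a TATA match, against 18.2% of all windows, and there matches on both strands overlapped. These matches describe letters and show no binding. Matches and distances depend on the start used. GENCODE M21 starts Alb downstream of its window, at 90460897, and Apoa1 (46228580) and Hpx (105600137) inside theirs. The window of Apoa1 had the highest GC content of the 4, at 60.5%, and that of Alb the lowest, at 41%.

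Alb stood at 6.40 FPKM in the HFD control library (5.44 to 7.48), from 158 fragments or 100.69 scaled counts. In the SML library it was listed at 0 FPKM with a scaled count of 0 and 0 fragments, which allows a level of up to 0.165 FPKM by a limit of 3 fragments. Against that limit Alb was at least 38.8-fold lower in the SML library. The libraries did not overlap in Alb within counting error.

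Apoa1 had the highest level per length of the 4 in HFD control, at 7.75 FPKM (6.17 to 9.61) from 83 fragments or 52.90 scaled counts. In the SML library it stood at 0.25 FPKM (0.0307 to 0.916), from 2 fragments or 1.73 scaled counts. The ratio of SML to HFD control was 0.0327 (0.00390 to 0.122). The intervals of Apoa1 and Alb in HFD control overlapped, so the order of these neighbours was within counting error, although Alb had more fragments.

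Hpx stood at 2.26 FPKM in HFD control (1.61 to 3.09), from 39 fragments or 24.85 scaled counts. In the SML library it stood at 0.40 FPKM (0.128 to 0.919), from 5 fragments or 4.33 scaled counts. The ratio was 0.174 (0.0536 to 0.442), which made Hpx 5.74-fold lower. Hpx had the most fragments of the 4 in the SML library. Its interval overlapped that of Apoa1 and lay wholly above the upper limit of Alb (0.0321), so within these libraries Hpx differed less than Alb.

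Fgb was barely detected. It stood at 0.22 FPKM in HFD control (0.0599 to 0.563), from 4 fragments or 2.55 scaled counts, and at 0 FPKM, 0 scaled counts and 0 fragments in the SML library. The upper limit of the ratio was 2.06, so no difference in Fgb was detectable at this depth, and no fold is given because the limit of 3 SML fragments is worth more scaled counts (2.60) than Fgb had in HFD control. Of the 21 genes with 4 fragments in HFD control, 10 had 0 in SML. These 10 included Fgb itself and other liver genes, among them Bhmt, Cyp3a11, Hrg and Uox. They are therefore not a background apart from liver genes.

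**Figure D1:**
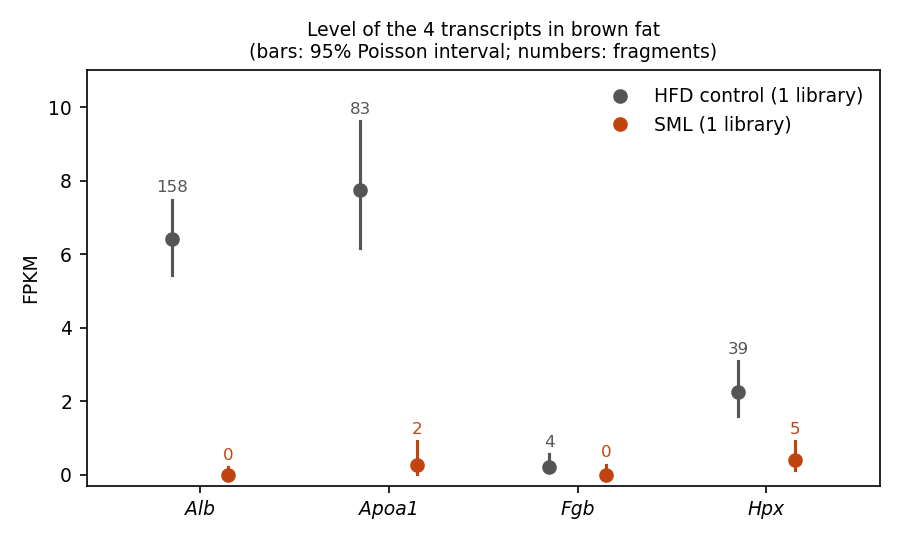
FPKM (vertical axis, linear) of Alb, Apoa1, Fgb and Hpx in the HFD control library (grey) and the SML library (orange), 1 library each. Bars are 95% exact Poisson intervals for counting error and the numbers are fragments. Alb, Apoa1 and Hpx stand clear of their SML values, while the intervals of Fgb overlap.

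The 4 genes together had 284 fragments in HFD control, of which Alb and Apoa1 held 84.9%, and 7 in SML, which came from Apoa1 and Hpx. Their HFD control levels were ordinary to low for the tissue. Of the 10761 genes with a usable symbol, 46.6% had a higher HFD control FPKM than Apoa1, 50.9% than Alb, 75.1% than Hpx and 98.6% than Fgb. Alb, Apoa1 and Hpx had few or no SML fragments, which is what they were chosen for. Of 9865 genes with at least 30 HFD control fragments 59 had at most 5 in SML (0.598%), and these included Alb, Apoa1 and Hpx. Of the 59 genes 20 had 0 SML fragments after rounding, and among those Alb had the second-highest number in HFD control after the pseudogene Atp6v0c-ps2. In the opposite direction 8 genes had at least 30 fragments in SML and at most 5 in HFD control (0.0847% of 9443). Ratios below that of Apoa1 were found for 28 of the 9865 genes, and below that of Hpx for 116.

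**Figure D2:**
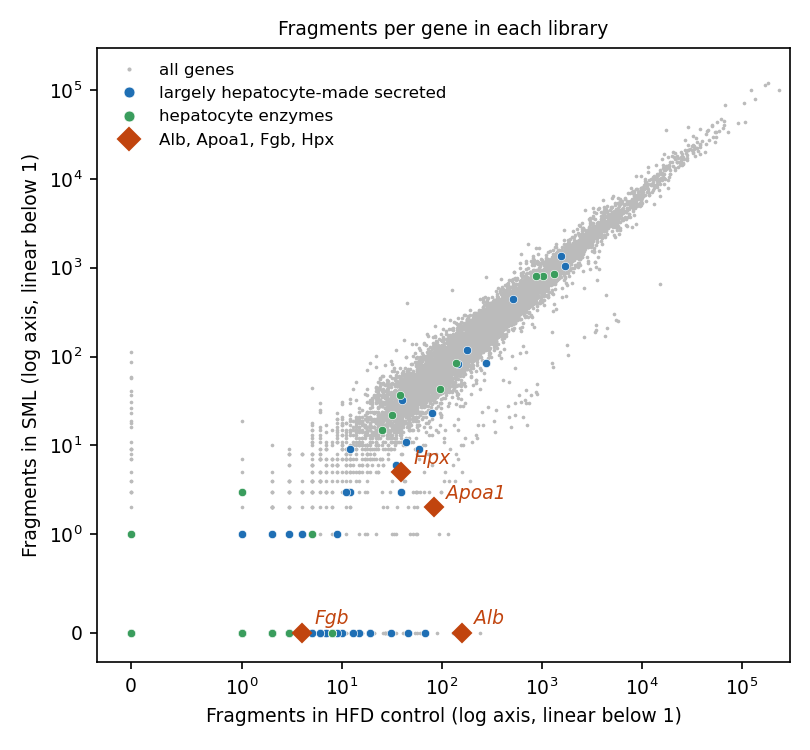
Fragments per gene in the HFD control library (horizontal) and the SML library (vertical), both on log axes that are linear below 1. Each grey point is 1 gene. Alb (158 against 0), Apoa1 (83 against 2), Hpx (39 against 5) and Fgb (4 against 0) lie under the main diagonal, where many other liver-secreted genes (blue) and hepatocyte enzymes (green) also lie.

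A gene was called higher or lower when log2(FPKM + 1) differed by at least 1.5-fold and its mean FPKM over both libraries was at least 1. By that rule 567 of 9870 genes were lower (5.74%) and 538 were higher (5.45%) in the SML library. Of the 4 members 3 passed the filter, all through the HFD control library, and Fgb did not. The differences on the log2(FPKM + 1) scale, SML minus HFD control, were -2.89 for Alb, -2.81 for Apoa1 and -1.22 for Hpx. This scale understates the change of low genes: Alb, at least 31.2-fold lower by the interval of its count ratio, differed by 2.89 there. The value for Fgb was -0.29.

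Genes close in level to each member over the 2 libraries were found by distance on the log2(FPKM + 1) scale. Those closest to Alb were Mup20, a major urinary protein (distance 0.40, 43 against 0 fragments), Dhrs7c (0.47) and Itgb1bp2 (0.47). Apoa1 was closest to Itgb1bp2 (0.18), to Myh7, the slow myosin heavy chain of muscle (0.30), and to the noncoding RNA H19 (0.39). Hpx was closest to the heat shock gene Hspa1b (0.11), to Yipf7 (0.11) and to Serpina1b, an alpha-1-antitrypsin gene (0.12). Fgb shared its FPKM values with Cahm, Mug1 and Ugt2b5, of which Cahm had 3 fragments in HFD control and 6 in SML although its SML FPKM was listed at 0. A likeness over 2 libraries reflects 1 level and 1 ratio and is a weak description.

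Other transcripts for proteins that hepatocytes export were lower as well in part. Of 70 secreted proteins listed as largely hepatocyte-made, 46 were in the table. The filter kept 15 of these, of which 9 were lower, 0 were higher and 6 were neither, with a median difference of -1.13 against 0 for all genes kept. Several of the 9 passed the filter through the HFD control library alone, so this count is not support. Without the filter 41 of the 46 had a ratio below 1 and 5 above 1. By a count ratio of 1.5-fold whose interval excluded 1, which needs no filter, 19 of the 46 were lower and 0 higher, while 7.85% of 10728 genes were lower and 8.89% higher. Of the 46 genes, 26 had fragments in HFD control alone and 0 in SML alone. The list was also chosen with earlier results of these data known, so these unfiltered counts are a description and not support either.

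Genes of that list past the rule ranged from 19 to 276 fragments in HFD control. Serpina3k, a serine protease inhibitor, went from 68 fragments to 0 and was by its interval at least 13.2-fold lower. Ttr, the thyroid hormone carrier transthyretin, went from 46 to 0 and was by its interval at least 8.81-fold lower. Apoc4 (19 to 0 fragments) was by its interval at least 3.43-fold lower, and its transcript shares its locus coordinates with Apoc2, so their fragments are uncertain. The alpha-1-antitrypsin genes Serpina1a (39 to 3 fragments), Serpina1b (35 to 6) and Serpina1e (59 to 9) were 9.57-fold, 4.29-fold and 4.82-fold lower, though these near-identical copies can share fragments. Vtn, which encodes the adhesion protein vitronectin, was 2.42-fold lower (276 to 84 fragments). Apoa2 and Apoc3, apolipoproteins that travel with Apoa1 on lipoproteins, were 2.53-fold and 2.94-fold lower.

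Of the 5 genes of that list with a mean FPKM of at least 10, Apoa2 was lower and 4 were neither. Orm1, the acute phase protein orosomucoid, which has close copies, had a ratio of 1.17 (1.09 to 1.26), Pon1, the paraoxonase of high-density lipoprotein, of 1.19 (1.05 to 1.36), and Rbp4, the retinol carrier, of 0.845 (0.782 to 0.914). C8g, a chain of complement C8 named after its values were seen, had a ratio of 0.891 (0.700 to 1.13). Vtn and Apoc3, both lower, also stood above 10 FPKM in HFD control (13.3 and 10.0 FPKM).

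**Figure D3:**
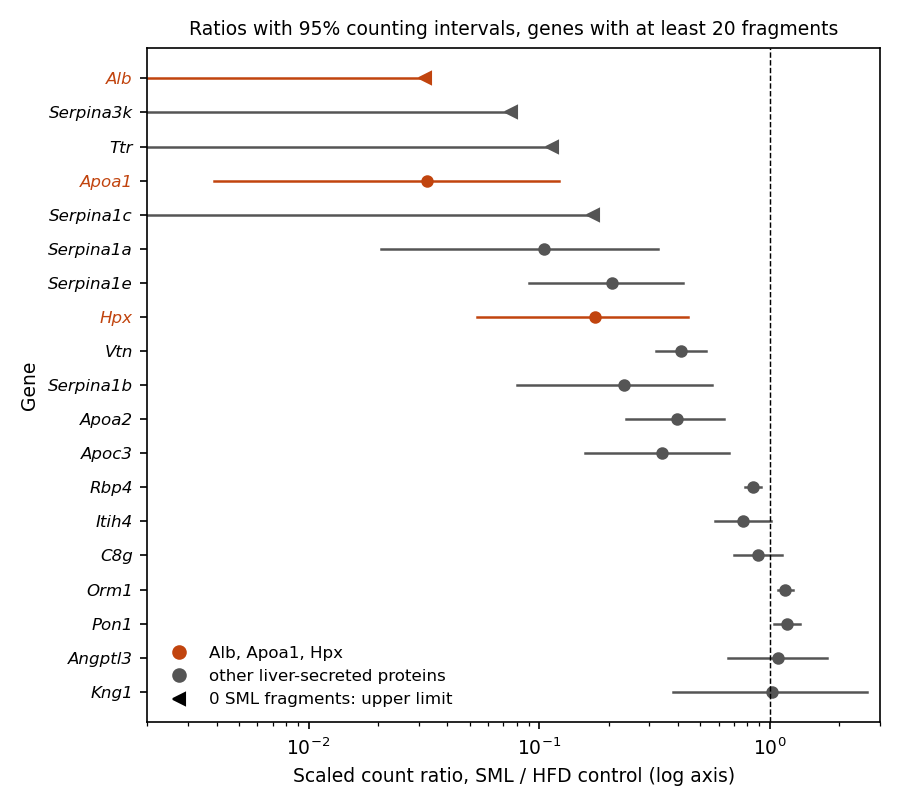
Ratio of scaled counts, SML over HFD control (log axis), with 95% counting intervals for Alb, Apoa1 and Hpx (orange) and the other largely hepatocyte-made secreted proteins (grey) with at least 20 fragments over both libraries. Triangles mark upper limits of genes with 0 SML fragments. Alb, Serpina3k and Ttr have the lowest limits, while Orm1 and Pon1 lie above 1.

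Many of the rarest liver transcripts had no fragment in the SML library. Of 31 genes of the list with 1 to 20 HFD control fragments 23 had 0 in SML (74.2%), beside 17.6% of all 544 such genes. For enzymes and transporters that act inside hepatocytes this held for 12 of 14 (85.7%). Among them were Fabp1, the liver fatty acid binding protein (8 to 0 fragments), and Cyp3a11, a drug-metabolising cytochrome (4 to 0), both named after their values were seen. Cps1, which starts the urea cycle, had 0 fragments in both libraries. In the reverse direction 3.39% of 797 genes with 1 to 20 SML fragments had 0 in HFD control. The 544 genes include the genes of these lists, which were chosen with earlier results of these data known. Genes were also taken by their HFD control fragments, so the shares are a description and not support.

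The filtered list of hepatocyte enzymes gave no call, with 0 of 7 lower, 0 higher and a median of -0.07. Its abundant genes are expressed in brown fat, such as Fah, of tyrosine breakdown (70.2 against 62.3 FPKM), and Cyp2e1 (42.6 against 52.8 FPKM). Ass1, of the urea cycle, had a difference of -0.22 and Hpd, of tyrosine breakdown, of 0.30. Of 16 liver transcription factors 2 were in the table, both also fat cell regulators. Cebpa had 313 FPKM in HFD control and 271 in SML, and Cebpb had 135 and 228 FPKM and was called higher.

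Plasma proteins that fat or other cells also make were partly lower and for the most part within 1.5-fold. Of 25 listed 19 were kept, with a median of -0.30. By the 1.5-fold rule 5 were lower, 0 higher and 14 neither, beside 5.74% lower and 5.45% higher of all genes kept. Apoc1 (3420 against 4864 FPKM) and Apoe (1370 against 1697 FPKM), apolipoproteins of fat cells and macrophages, had differences of 0.51 and 0.31, and Cfd, the fat-secreted factor adipsin, stood at 3305 and 3343 FPKM. The lowest differences were those of Saa3, at -1.07 with 8 and 1 fragments and a ratio interval that included 1 (0.00383 to 1.27), and Serpina3n, at -0.89. By the count ratio 4 genes were lower and 1 was higher, the growth factor gene Igf1 (147 against 227 fragments, ratio 2.10, 1.70 to 2.60), although its summed FPKM stood at 4.48 and 5.31. Apoa1 thus differed from the apolipoproteins Apoe and Apoc1 in direction.

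Genes next to the members on the chromosome were compared by distance, and were named after their values were seen. Fga and Fgg, which encode the other fibrinogen chains and lie 8687 and 27255 bases from Fgb, had 7 and 6 HFD control fragments and 0 in SML. Plrg1, a splicing gene 5747 bases from Fgb, gave 474 and 224 fragments and a ratio of 0.642 (0.545 to 0.754). Beside Apoa1, its cluster partner Apoc3 at 2580 bases had a ratio of 0.340 (0.158 to 0.668) and Apoa5 went from 5 fragments to 0, whereas the kinase gene Sik3 at 4435 bases had a ratio of 0.744 (0.616 to 0.896). Trim3, 4346 bases from Hpx, had a ratio of 0.717 (0.601 to 0.855). Of the other neighbours within 100 kb, some lay above 1, namely Zpr1 near Apoa1 (1.204, 1.02 to 1.42) and Arfip2 (1.21, 1.07 to 1.37) and Timm10b (1.31, 1.19 to 1.44) near Hpx. Apbb1, 9957 bases from Hpx, lay below 1 (0.730, 0.573 to 0.925). The intervals of Bud13 near Apoa1, Smpd1 near Hpx and Gm9958 near Alb included 1. Ankrd17, near Alb, had a ratio of 1.11 (0.960 to 1.27). The intervals of Fga and Fgg overlapped that of Plrg1, and those of Apoa5 and Apoc3 overlapped that of Sik3, while the intervals of Apoa1 and Hpx lay wholly below those of Sik3 and Trim3.

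Receptors and partners of the 4 proteins were mostly within 1.5-fold. Of 30 listed 23 were kept, with a median of -0.10. By the 1.5-fold rule 4 were lower, 0 higher and 19 neither, beside 5.74% lower and 5.45% higher of all genes kept. Beside the genes at the ends of this list, Fcgrt, Scarb1, Lrp1, Hmox1 and Cdh5 are named for their roles with their values known. Fcgrt, the receptor that recycles albumin, had 268 FPKM in HFD control and 292 FPKM in SML. Of the partners of apolipoprotein A-I, Abca1, the transporter that loads it with cholesterol, had a difference of 0.38, and Scarb1, the receptor for high-density lipoprotein, of 0.12. Lrp1, which takes up heme-hemopexin, stood at 9.95 and 11.4 FPKM, while Hmox1, which breaks heme down, was 1.74-fold lower (298 to 126 fragments). Of the fibrin and fibrinogen partners Itgb2, a leukocyte integrin chain, was 2.07-fold lower, Plaur, the urokinase receptor, 3.05-fold lower (29 to 7 fragments) and Cdh5, an endothelial cadherin, 1.67-fold lower. Itgav, an integrin chain, had the highest difference of the list at 0.52, and its count ratio was 1.96 (1.45 to 2.65). By the count ratio whose interval excludes 1, Itgav was called higher, which made 4 lower and 1 higher of 24. Hmox1, Itgb2 and Plaur are also expressed by macrophages, of whose 15 markers 9 were lower, and the part of those cells was not tested.

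Many markers of other cells were also lower in the SML library, though some were not. Of 22 skeletal muscle markers 21 were kept and 21 were lower, and their summed level was 5096 FPKM in HFD control against 473 FPKM in SML. Their ratios had a median of 0.0764, between those of Apoa1 and Hpx, and Acta1, the muscle actin, stood at 881 and 52.5 FPKM. All 6 erythroid markers in the table were lower (3740 against 1864 summed FPKM), with the lowest ratio, 0.302, for Hba-a2, a globin gene with a near-identical copy. Of 15 macrophage markers 9 were lower and 1, Cd14, was higher (536 against 327 summed FPKM), and the platelet marker Pf4 was 2.25-fold lower. Of 13 intestinal markers 2 were in the table, where Fabp2 had 0 fragments in both libraries and Mttp, a lipoprotein assembly gene that hepatocytes share, went from 31 fragments to 0. The 1 pancreatic marker in the table, Cela1, had a ratio of 0.836 (0.549 to 1.26). The part of muscle, blood or macrophages in the differences of Alb, Apoa1 and Hpx was not tested.

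The tissue label held in both libraries. Of 15 brown adipocyte genes 15 were kept, 0 were lower and 2 were higher, with a median of 0.06. Ucp1, the uncoupling protein of brown fat, was measured at 8702 FPKM in HFD control against 7955 FPKM in SML. Lpl and Dio2 were the 2 higher genes, and the lowest difference was that of Cox8b at -0.57. By the count ratio whose interval excludes 1, Cox8b was called lower (0.659, 0.649 to 0.669), which made 1 lower and 2 higher of 15.

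**Figure D4:**
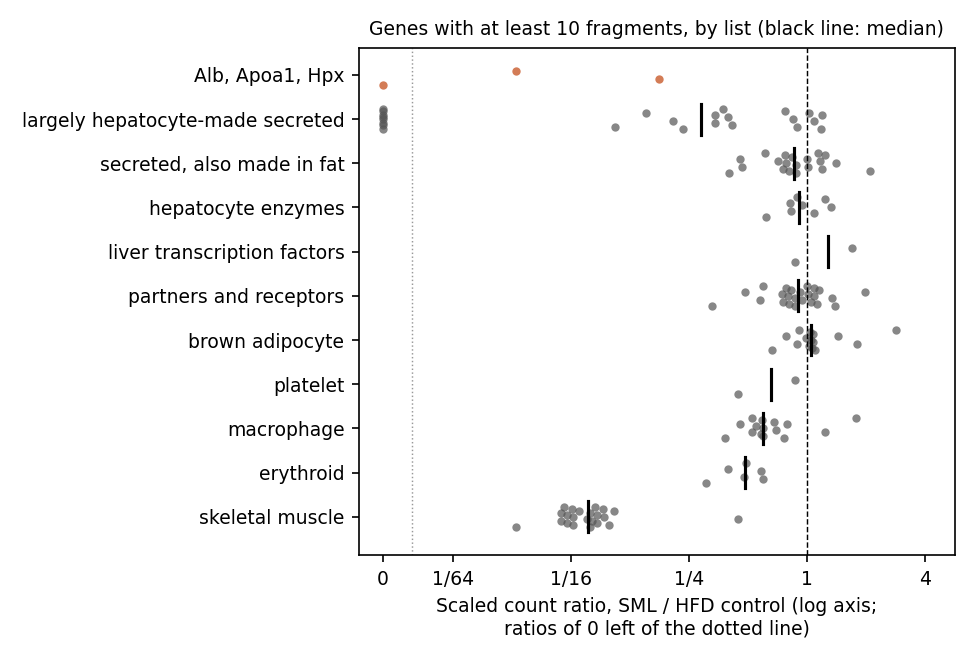
Ratio of scaled counts, SML over HFD control (log axis, ratios of 0 to the left of the dotted line), for genes with at least 10 fragments, by list. Each point is 1 gene and black lines are medians. Alb, Apoa1 and Hpx (orange) and part of the largely hepatocyte-made secreted proteins lie far left, skeletal muscle has a median of 0.0764 and brown adipocyte genes one of 1.04.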

How the data were processed

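Brown adipose tissue of 2 groups was measured by RNA sequencing with 1 library each. Per the labels' protocols, poly(A) RNA was selected with oligo-dT beads and TruSeq libraries were made. The submitters' processing notes name CASAVA 1.8, Cufflinks and build mm10. The aligner, annotation release and filters were not given in the sources used here. For 14189 transcripts the authors deposited FPKM and a scaled count signal. The deposited count signal was not whole: low values moved in steps of 0.637 (HFD control) and 0.866 (SML), and 90.7% of 538 and 90.4% of 783 values of up to 20 steps were whole multiples within 0.1. Dividing by the step gave fragments. The deposited FPKM was 0 in 1443 SML and 274 HFD control transcripts with a count signal above 0. Deposited starts were 1 below RefSeq's for 3849 of 8151 genes and equal for 287, so 1 was added.

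Transcripts were summed by symbol, and 17 symbols turned into dates were left out. Genes with a mean FPKM of 1 or more were kept, and differences used a pseudocount of 1. Ratio intervals are 95% exact conditional binomial intervals on fragments, levels carry exact Poisson intervals, and a count of 0 was set to 3 fragments for bounds. Without replicates no test was run. The calling was tested on simulated data. Members and lists were chosen with earlier results of these data known. Named genes were the members, the 2 most abundant genes and 2 at each end of each list, liver-list genes past 1.5-fold and the 3 genes nearest to each member; 1 of these is not reported here. Alternatives changed the pseudocount, filter, scaling, transcript choice and call rule. The number of unused sample columns was 0. Python 3.11.15, scipy 1.17.1, pandas 2.3.3 and matplotlib 3.10.9 were used.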

Additional observations from a re-analysis of the deposited data

How the results depend on the processing

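Totals equal outside the 50 highest genes and median-of-ratios scaling multiplied SML values by 1.04 and 0.988. Such factors are too near 1 to reverse the differences of Alb, Apoa1 and Hpx, so they do not test the direction. With scaled counts taken as fragments the upper limits of the ratios stayed below 1 (Alb 0.0372, Apoa1 0.143, Hpx 0.463). The limit of Fgb stayed above 1 under each of these settings. Ratios from FPKM kept the direction for Apoa1 and Hpx, and test nothing for Alb and Fgb, listed at 0. Taking the highest transcript per symbol cannot change members with 1 transcript each. Against the limit of 3 SML fragments, Alb was 33.6-fold to 39.2-fold lower under the scaling and fragment settings. The number of lower genes was 1115 without a filter and 305 with the filter at 5 FPKM, against 567. The number of higher genes was 847 with a pseudocount of 0.1, 319 with the filter at 5 FPKM and 954 by the count ratio whose interval excludes 1, against 538. Of the largely hepatocyte-made secreted proteins 19 were lower without a filter, 3 with the filter at 5 FPKM and 19 by the count ratio, against 9, and 8 when only genes with a mean FPKM under 10 were taken, a setting added after seeing the data. Of the partners and receptors 2 were lower with the filter at 5 FPKM, against 4. The count of lower skeletal muscle markers stayed within 1.5 times of 21 under each setting. Stricter or looser filters test fewer or more genes. Without a filter, the lower counts also include genes with SML fragments whose SML FPKM was listed at 0. Examples named after their values were seen are Kng1, with 12 fragments in HFD control and 9 in SML, and Akap11, with 76 and 103. The cause of the other changes was not tested. No paired analysis was possible because each group had 1 library, and no library could be left out. Depth limits Fgb and every gene with few fragments, since by the limit used a count of 0 allows up to 3 fragments.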

Other observations

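Major urinary protein genes, which the liver secretes and which were on no list, had fragments in HFD control and few or none in SML. They were chosen after their values were seen, and their near-identical copies make single values uncertain. Mup20 had 43 fragments in HFD control and 0 in SML, Mup3 had 36 and 2, Mup11 had 27 and 0, and Mup7 had 12 and 0. The carboxylesterase genes Ces1c and Ces3a had 6 fragments each in HFD control and 0 in SML, while Ces1d, an abundant esterase of fat, stood at 764 and 1012 FPKM. Hp, whose product haptoglobin binds free hemoglobin and which fat makes at a high level, had 1828 FPKM in HFD control against 1528 FPKM in SML and a ratio of 0.833 (0.817 to 0.849). Hpx, the heme-binding counterpart, was at 2.26 and 0.40 FPKM.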
